A study of Mus musculus with 6 samples.

Results

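The mitochondrial respiratory chain was examined through 91 genes, chosen by the prefix of their symbols (*Ndufa*, *Ndufb*, *Ndufc*, *Ndufs*, *Ndufv*, *Sdha* to *Sdhd*, *Uqcr*, *Cox4* to *Cox8* and *Atp5*) among 17097 genes that had a probe set with a single symbol. The prefixes took 153 probe sets, and the brightest probe set of each gene, by its mean signal on the 6 arrays, stood for that gene. By textbook role, 70 of the 91 genes encode subunits found in most tissues, 7 encode tissue isoforms of complex IV subunits, and 11 encode assembly factors that are not part of the finished complexes. The other 3 were *Cox7a2l*, a factor that joins complexes into supercomplexes, *Ndufa4l2*, a paralog of *Ndufa4*, and the pseudogene symbol *Ndufs5-ps*. By complex, the subunits numbered 32 for complex I, 4 for complex II, 7 for complex III, 10 for complex IV and 17 for complex V. The chain proteins encoded in mitochondrial DNA were not analysed here.

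The respiratory chain sits in the inner mitochondrial membrane. Complex I takes electrons from NADH and complex II takes them from succinate, complex III passes them to cytochrome c, and complex IV reduces oxygen with them; the proton gradient made on the way drives ATP synthesis by complex V. Mouse embryonic stem cells (ESCs) of the naive state are known to respire, whereas cells that move towards the post-implantation epiblast are known to rely more on glycolysis.

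The study used E14tg2a, a male mouse ESC line, and asked how PRDM14, a PR-domain transcriptional regulator, returns epiblast-like cells (EpiLCs) to an ESC-like state, with and without the TET enzymes that oxidise 5-methylcytosine. Each of 6 conditions was measured on 1 array of total RNA: ESCs, for which the labels give no genotype; EpiLCs at day 2 (d2) and day 4 (d4) with scramble RNA; EpiLCs + PRDM14 with scramble RNA; and, with *Tet1*/*Tet2* knockdown (KD), EpiLCs (d2) and EpiLCs + PRDM14, the labels naming no day for either PRDM14 array. According to the methods, the cells carried a doxycycline-inducible *Prdm14* transgene on a piggyBac vector, came from picked colonies and received short hairpin RNAs by lentivirus, and EpiLCs were made with activin A and bFGF and replated at day 2 in medium without these factors, with or without doxycycline. By the same methods ESCs were kept with LIF, and with inhibitors as well before EpiLC induction. Medium and cell state therefore cannot be told apart in ESCs minus EpiLCs (d2). No condition had a replicate, so no test was possible and every difference is a difference between 2 arrays.

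Values are log2 signals of the robust multi-array average (RMA). Where 6 signals are listed, they are as deposited and follow the order in which the conditions are named above: ESCs, d2, d4, PRDM14, KD d2 and KD PRDM14. A gene was counted when 2 arrays differed by at least 1.5-fold, which is 0.58 on this scale. The 4 arrays without knockdown had median signals of 5.28 to 5.29 over all probe sets and the 2 KD arrays 5.07, so KD arrays were compared with scramble arrays after a shift to a common median. Naive markers were higher on the ESC array than on the EpiLC (d2) array (*Klf4* 9.21 against 5.25, *Nanog* 10.32 against 7.91), and the EpiLC markers *Pou3f1* (4.91 against 9.01) and *Dnmt3b* (10.34 against 11.47) were lower. On the EpiLCs + PRDM14 array *Klf4* read 7.25, *Nanog* 10.25, *Pou3f1* 5.64 and *Dnmt3b* 9.37. The KD d2 array was already higher than the scramble d2 array after the shift, by 1.06 for *Klf4* and 1.07 for *Nanog*. PRDM14 differences within the KD arrays therefore start from another d2 state than those in scramble. The *Prdm14* probe set read 6.96 in ESCs and 4.70 to 5.18 on the other 5 arrays, the arrays labelled + PRDM14 included, and its position relative to the transgene is not known here. As deposited, the brightest *Tet2* probe set read 8.53 on the scramble d2 array and 8.49 on the KD d2 array, and 8.51 and 7.76 with PRDM14. After the shift its KD minus scramble difference was 0.17 at d2 and -0.54 with PRDM14, both inside 1.5-fold. At d2 it thus did not bear out the knockdown label. *Tet1* was not analysed here. The trophoblast marker *Krt7* read 4.87 to 5.09 in ESCs and both d2 arrays, 6.05 in EpiLCs (d4), 5.55 in EpiLCs + PRDM14 and 6.49 in KD EpiLCs + PRDM14, and its part in the results was not tested, while the other trophoblast marker measured, *Cdx2*, stayed between 5.55 and 5.80. The brightest probe sets of the endoderm markers *Gata6* and *Sox17* read 4.86 to 6.04, and those of the fibroblast markers *Col1a1* and *Dcn* 3.84 to 6.42.

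The stretches that precede the start of the 5 genes that passed 1.5-fold in any pair are shown first, because the promoters of many respiratory chain genes are known to carry sites for NRF1, for ETS factors such as GABPA and for YY1, and these 5 differ in that respect. Each is the 150 bases before the annotated start, 5′ to 3′ on the gene's strand, from RefSeq in build GRCm38.p6. Capitals mark matches, on either strand, to GCGCANGCG (NRF1), CCGGAAG (ETS) or AAGATGGC (YY1).
*Cox7a1*, chr7:30184021-30184170, plus strand: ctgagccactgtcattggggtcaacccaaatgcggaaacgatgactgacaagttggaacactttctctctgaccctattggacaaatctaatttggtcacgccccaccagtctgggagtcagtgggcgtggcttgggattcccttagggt
*Cox6b2*, chr7:4753095-4753244, minus strand: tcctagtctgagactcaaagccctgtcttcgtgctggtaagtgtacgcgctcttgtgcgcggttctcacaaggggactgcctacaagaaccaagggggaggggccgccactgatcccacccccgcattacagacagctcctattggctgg
*Ndufb4*, chr16:37654369-37654518, minus strand: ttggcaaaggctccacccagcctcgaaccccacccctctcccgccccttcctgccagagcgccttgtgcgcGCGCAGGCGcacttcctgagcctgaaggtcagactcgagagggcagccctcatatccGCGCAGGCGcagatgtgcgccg
*Sdhaf3*, chr6:6955868-6956017, plus strand: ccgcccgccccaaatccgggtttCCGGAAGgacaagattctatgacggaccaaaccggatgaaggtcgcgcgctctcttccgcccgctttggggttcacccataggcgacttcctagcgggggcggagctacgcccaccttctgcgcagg
*Sdhaf4*, chr1:24005641-24005790, minus strand: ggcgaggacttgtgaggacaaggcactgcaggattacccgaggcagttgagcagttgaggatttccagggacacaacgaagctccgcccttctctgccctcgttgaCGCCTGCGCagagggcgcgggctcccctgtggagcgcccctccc
The stretches of the 2 tissue isoforms, *Cox7a1* and *Cox6b2*, held none of the 3 motifs, and neither did their full windows from 250 bases before to 50 after the start. The complex I subunit *Ndufb4* held the NRF1 motif at 2 places. The complex II assembly factor *Sdhaf4* held it once, and *Sdhaf3* held the ETS motif in the stretch shown and the NRF1 motif elsewhere in its window.

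Windows were on hand for 74 of the 91 genes (79 windows). The NRF1 motif was found in 30.4% of these windows, against 9.74% of the 16953 windows of genes on the array. The ETS motif was found in 25.3% against 13.0%, and the YY1 motif in 13.9% against 3.44%, with the same median GC content of 58.3% in both sets. Of the 4 tissue isoforms with a window, none held any of the 3 motifs. The 23 genes with an NRF1 match had a median ESCs minus EpiLCs (d2) difference of 0.10 (20 above 0), and the 51 without had 0.11 (42 above 0). In EpiLCs + PRDM14 minus EpiLCs (d2) the medians were 0.15 with a match (21 above 0) and 0.10 without (40 above 0), and within the KD arrays 0.12 (19 above 0) and 0.05 (34 above 0). For the ETS motif, 13 of 20 genes with a match and 49 of 54 without were above 0 in ESCs minus EpiLCs (d2), with medians of 0.08 and 0.13. The ETS medians with and without a match were 0.10 and 0.11 in EpiLCs + PRDM14 minus EpiLCs (d2). They were 0.13 and 0.08 in EpiLCs + PRDM14 minus EpiLCs (d4), and 0.06 and 0.08 within the KD arrays. For the YY1 motif (11 genes with a match, 63 without) the medians were 0.13 and 0.10 in ESCs minus EpiLCs (d2). With PRDM14 minus EpiLCs (d2) they were 0.12 and 0.11. These differences between genes with and without a motif were not tested. A match is a string of letters and does not show binding.

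In the ESC array, most respiratory chain genes read slightly higher than in EpiLCs (d2), and only 2 differed by 1.5-fold, *Cox7a1* and *Ndufb4*. The median difference over the 91 genes was 0.11 with quartiles of 0.03 and 0.24, and 76 of 91 (83.5%) were above 0. Over all 17097 genes the median was 0.01 and 51.8% were above 0, and 5.02% passed 1.5-fold, against the 2 of 91 here. In bulk RNA, fewer cells of a type and less RNA per cell cannot be told apart. Because most chain genes gave bright probe sets, another reference was the 1498 genes whose mean signal was 9 or more, of which 48.1% were above 0 with a median of -0.01. Of the 67 chain genes at 9 or more, 61 were above 0.

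EpiLCs + PRDM14 differed from EpiLCs (d2) with scramble RNA in a similar way. The median was 0.11, 72 of 91 were above 0, and *Cox7a1* and *Sdhaf4* passed 1.5-fold, where 4.63% of all genes did. All genes had a median of -0.01 with 47.5% above 0, and genes at 9 or more had -0.02 with 45.0% above 0. Since this comparison and the ESC comparison subtract the same EpiLCs (d2) array, a low reading on that array enters both.

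A comparison that leaves the d2 array out is that of EpiLCs + PRDM14 with EpiLCs (d4), cells that had been replated without PRDM14 induction. Here the median was 0.08, again with 72 of 91 genes above 0, and *Cox7a1* and *Cox6b2* passed 1.5-fold, against 4.02% of all genes. Over all genes the median was 0.01 and 51.8% were above 0. According to the methods, doxycycline induced PRDM14. Wherever a PRDM14 array is compared with one without PRDM14, the drug and PRDM14 therefore cannot be told apart. EpiLCs + PRDM14 minus EpiLCs (d2) also takes in the replating and the change of medium. EpiLCs (d4) minus EpiLCs (d2) gave a median of 0.02, 50 of 91 above 0 and no chain gene past 1.5-fold, where 3.30% of all genes passed; the gene nearest to the limit was *Cox7a1* at -0.49.

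Ranked over the 4 arrays without knockdown, the ESC array held the highest signal for 43 of the 91 genes and EpiLCs + PRDM14 for 33, EpiLCs (d2) for 9 and EpiLCs (d4) for 6. The lowest signal was on the EpiLCs (d2) array for 43 genes, on EpiLCs (d4) for 30, on EpiLCs + PRDM14 for 12 and on ESCs for 6. Among all genes at 9 or more the highest signals were spread more evenly, at 30.0% for ESCs, 27.6% for EpiLCs (d2), 21.4% for EpiLCs (d4) and 21.0% for EpiLCs + PRDM14. Their lowest signals were on ESCs for 27.8%, EpiLCs (d2) for 19.9%, EpiLCs (d4) for 25.9% and EpiLCs + PRDM14 for 26.4%. The differences behind these ranks were small: the median range over the 4 arrays was 0.23 for the chain genes, 0.20 for all genes and 0.28 for genes at 9 or more. Without replicates, 1 array reading a little high or low for a whole set of genes cannot be told apart from its condition.

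**Figure D1:**
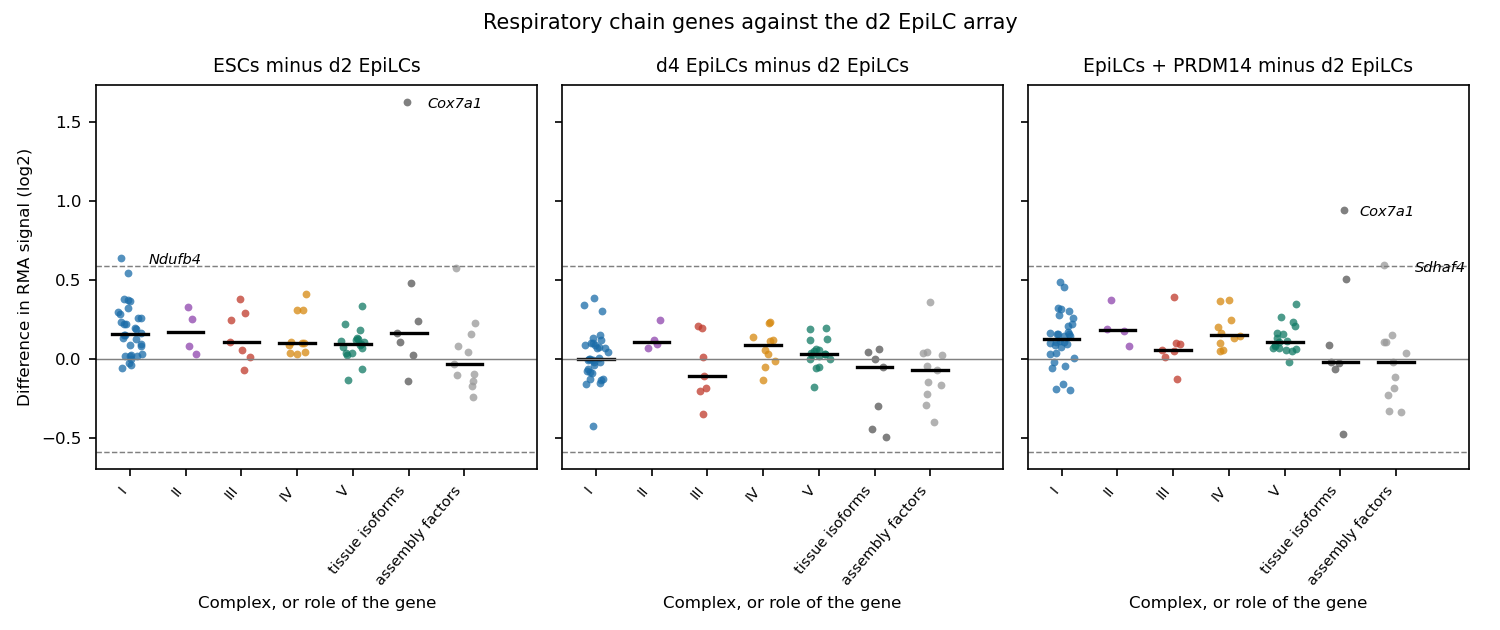
Difference in RMA signal (log2, vertical axis) from the EpiLC (d2) array for ESCs, EpiLCs (d4) and EpiLCs + PRDM14, with 1 point per gene for 88 genes, grouped by complex or role (the 3 genes of other roles are left out); black bars are medians and dashed lines mark 1.5-fold. Most subunits lie between 0 and 0.5 in the ESC and PRDM14 panels, and *Cox7a1* stands apart at 1.62 and 0.94.

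Complex I, the NADH dehydrogenase, had the most subunits. Its 32 subunits had a median of 0.16 in ESCs minus EpiLCs (d2), with 28 above 0, and 0.13 in EpiLCs + PRDM14 minus EpiLCs (d2), with 26 above 0. In EpiLCs (d4) minus EpiLCs (d2) the median was 0.00 with 15 above 0.

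*Ndufb4*, an accessory subunit of the membrane arm, read 10.20, 9.57, 9.44, 9.89, 9.40 and 9.55. It was highest in ESCs, followed by EpiLCs + PRDM14, with an ESCs minus EpiLCs (d2) difference of 0.64 (1.56-fold). By the brightest probe set of each gene, no other subunit outside the tissue isoforms passed 1.5-fold in any of the 7 pairs. Another *Ndufb4* probe set gave 0.63 in ESCs minus EpiLCs (d2), and the dimmest of its 3, with a mean signal of 5.19, gave 0.03. Dimmer probe sets of other subunits also passed: *Ndufs4* (0.75 in EpiLCs (d4) minus EpiLCs (d2)), *Uqcr10* (0.85 in EpiLCs + PRDM14 minus EpiLCs (d4)) and *Uqcrq* (-0.99 in KD minus scramble at d2). *Ndufa3*, another accessory subunit, read 10.24, 9.69, 10.03, 10.18, 9.74 and 10.03, lowest on the d2 array of each kind. Its difference from EpiLCs (d2) was 0.55 in ESCs and 0.49 with PRDM14, and its other probe set gave 0.56 and 0.50.

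*Ndufb11*, an accessory subunit encoded on the X chromosome, followed another order. It read 10.26, 10.24, 10.63, 10.70, 10.18 and 10.44, so ESCs and EpiLCs (d2) were level and the 3 arrays of replated cells were each above the d2 array of their own kind. Its 3 probe sets gave 0.38 to 0.47 in EpiLCs (d4) minus EpiLCs (d2), and it had the largest increase of any chain gene in that pair. *Ndufs8*, a core subunit that carries iron-sulfur clusters, had the reverse order, with 9.89, 9.94, 9.52, 9.75, 9.61 and 9.41. Its difference in EpiLCs (d4) minus EpiLCs (d2) was -0.42, while its other 3 probe sets gave -0.42, -0.25 and -0.23.

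Other core subunits of complex I carry electrons from NADH towards ubiquinone. *Ndufv2*, which carries an iron-sulfur cluster, read 10.68, 10.31, 10.46, 10.45, 10.21 and 10.38, highest in ESCs at 0.37 over EpiLCs (d2). *Ndufs3* read 9.70, 9.54, 9.41, 9.38, 9.43 and 9.27, with 0.16 in ESCs and -0.16 with PRDM14. *Ndufv1*, which binds NADH and flavin, read 10.30, 10.04, 9.99, 10.13, 9.89 and 9.74, and was highest in ESCs. *Ndufs1*, the largest subunit of the electron input arm, read 9.07, 9.04, 9.13, 9.13, 9.02 and 8.80. *Ndufs7*, which holds the last iron-sulfur cluster before ubiquinone, read 9.50, 9.35, 9.27, 9.46, 9.24 and 9.27. *Ndufv1*, *Ndufs1* and *Ndufs7* differed by at most 0.26 from EpiLCs (d2) on the other 3 arrays without knockdown. *Ndufb3*, an accessory subunit, read 8.31, 8.34, 8.34, 8.29, 8.38 and 8.03, and stayed between 8.29 and 8.34 on the 4 arrays without knockdown. Within the KD arrays, EpiLCs + PRDM14 minus EpiLCs (d2) was -0.35.

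Complex II, the succinate dehydrogenase of the citric acid cycle, has 4 subunits, and each of the 4 read above EpiLCs (d2) in ESCs, in EpiLCs (d4) and in EpiLCs + PRDM14. The medians were 0.17, 0.11 and 0.18. *Sdhb*, the iron-sulfur subunit, read 10.15, 9.90, 10.15, 10.27, 9.73 and 9.83, lowest on the d2 array of each kind, and was 0.37 above EpiLCs (d2) with PRDM14. *Sdha*, the flavin subunit, read 10.17, 10.09, 10.21, 10.26, 10.02 and 10.05. The membrane anchors *Sdhc* and *Sdhd* were higher than EpiLCs (d2) by 0.33 and 0.03 in ESCs and by 0.19 and 0.08 with PRDM14.

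Complex II has 4 assembly factors among the 91 genes. *Sdhaf4*, which binds the flavin subunit before it joins the complex, read 7.89, 7.32, 7.68, 7.91, 7.15 and 7.67. It was lowest on the 2 d2 arrays, and the difference from EpiLCs (d2) was 0.59 with PRDM14 (1.51-fold), 0.57 in ESCs and 0.36 in EpiLCs (d4), while in the KD arrays the PRDM14 difference was 0.52. *Sdhaf3*, which helps the iron-sulfur subunit mature, read 6.94, 7.11, 7.06, 7.26, 7.49 and 8.03, highest on the 2 KD arrays. *Sdhaf1*, which acts on the same subunit, read 6.50, 6.75, 6.35, 6.63, 6.43 and 5.86, lowest on the array where *Sdhaf3* was highest. *Sdhaf2*, which helps attach the flavin, stayed within 7.62 and 7.93.

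The assembly factors as a group lay on both sides of 0. All 11 together had medians of -0.03 in ESCs minus EpiLCs (d2) and -0.02 in EpiLCs + PRDM14 minus EpiLCs (d2), with 5 of 11 above 0 in each. *Ndufaf1*, an early assembly factor, read 8.36, 8.13, 7.84, 7.80, 8.11 and 7.89, below EpiLCs (d2) by 0.33 with PRDM14. *Ndufaf6* read 7.75, 7.59, 7.52, 7.26, 7.18 and 6.90, with a PRDM14 difference of -0.33 in scramble and -0.27 in KD. *Ndufaf2*, a factor that binds a late intermediate, differed by -0.23 in scramble and 0.19 in KD.

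Complex III, the cytochrome c reductase, had its lowest median in EpiLCs (d4). Its 7 subunits had a median of 0.11 in ESCs minus EpiLCs (d2), -0.11 in EpiLCs (d4) minus EpiLCs (d2) and 0.06 in EpiLCs + PRDM14 minus EpiLCs (d2). *Uqcrb*, which binds ubiquinone near the membrane, read 10.25, 9.87, 10.07, 10.26, 9.85 and 10.05, lowest on the d2 array of each kind, with differences of 0.38 in ESCs and 0.39 with PRDM14. *Uqcrc1*, a core protein, read 10.57, 10.32, 10.12, 10.42, 10.25 and 10.37, and its EpiLCs + PRDM14 minus EpiLCs (d4) difference was 0.30. *Uqcrc2*, the other core protein, differed by -0.14 in the same pair. *Uqcrq* read 10.03, 10.10, 9.75, 9.97, 9.94 and 9.71, and *Uqcrfs1*, the Rieske iron-sulfur protein, stayed between 9.55 and 9.56 on the 4 arrays without knockdown.

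Complex IV, the cytochrome c oxidase, had all 10 of its subunits above EpiLCs (d2), both in ESCs and in EpiLCs + PRDM14. The medians were 0.10 and 0.15, and all 10 were also above EpiLCs (d4) with PRDM14, with a median of 0.12. *Cox5a* read 12.65, 12.24, 12.23, 12.40, 12.28 and 12.37, highest in ESCs, and its 3 probe sets gave 0.35 to 0.49 in ESCs minus EpiLCs (d2). *Cox4i1*, the common form of subunit 4, read 12.01, 11.90, 11.96, 12.15, 11.81 and 12.02 and was highest with PRDM14. *Cox5b* read 11.49, 11.45, 11.57, 11.60, 11.38 and 11.45. *Cox6a1*, the common form of subunit 6a, read 12.27, 11.95, 12.19, 12.32, 11.99 and 12.14, and *Cox6b1*, the common form of subunit 6b, read 11.13, 10.82, 11.04, 11.19, 10.83 and 10.89. Each differed from EpiLCs (d2) by 0.31 in ESCs and 0.37 with PRDM14.

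The largest difference among the 91 genes was that of a tissue isoform of complex IV. This gene, *Cox7a1*, the form of subunit 7a found in heart and skeletal muscle, read 8.04, 6.42, 5.92, 7.36, 6.30 and 6.30. ESCs and EpiLCs + PRDM14 were high and the 4 others low. The ESCs minus EpiLCs (d2) difference was 1.62 (3.08-fold), EpiLCs + PRDM14 minus EpiLCs (d2) 0.94 (1.92-fold) and EpiLCs + PRDM14 minus EpiLCs (d4) 1.43 (2.70-fold), from the single *Cox7a1* probe set. The common form, *Cox7a2*, read 11.27, 11.23, 11.35, 11.36, 11.12 and 11.14 and differed from EpiLCs (d2) by 0.04 in ESCs and 0.13 with PRDM14.

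*Cox6b2*, a testis form of subunit 6b, read 5.67, 5.43, 4.99, 5.94, 4.99 and 5.22. It was highest with PRDM14, and the difference from EpiLCs (d4) was 0.95 (1.93-fold), while the difference from EpiLCs (d2), which lay between the others, was 0.51. *Cox7b2*, another testis form, read 4.88, 4.40, 4.10, 3.92, 4.06 and 4.07, highest in ESCs and lowest with PRDM14, with a PRDM14 minus EpiLCs (d2) difference of -0.47. These signals lay near or below the arrays' medians, and the values carry no detection call. The other 4 isoforms stayed nearly level over the 4 arrays without knockdown, *Cox4i2* between 4.98 and 5.15, *Cox6a2* between 5.43 and 5.57, *Cox8b* between 5.12 and 5.28, and *Cox8c* between 8.40 and 8.45. *Cox8a*, the common form of subunit 8, lay between 10.34 and 10.57 on all 6 arrays.

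*Ndufa4*, first described in complex I and now counted in complex IV, read 10.72, 10.68, 10.82, 10.88, 10.59 and 10.75. Its paralog *Ndufa4l2*, known as a hypoxia target, read 6.39, 6.42, 6.41, 6.34, 5.86 and 5.90, level within each kind of array. The supercomplex factor *Cox7a2l* read 9.44, 9.27, 9.52 and 9.59 on the 4 arrays without knockdown, with a PRDM14 difference of 0.12 in KD, and its 3 probe sets gave 0.32 to 0.39 in EpiLCs + PRDM14 minus EpiLCs (d2). *Ndufs5-ps* read 9.81, 9.55, 9.56, 9.64, 9.26 and 9.32, and probes named for this pseudogene may pick up its parent gene.

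**Figure D2:**
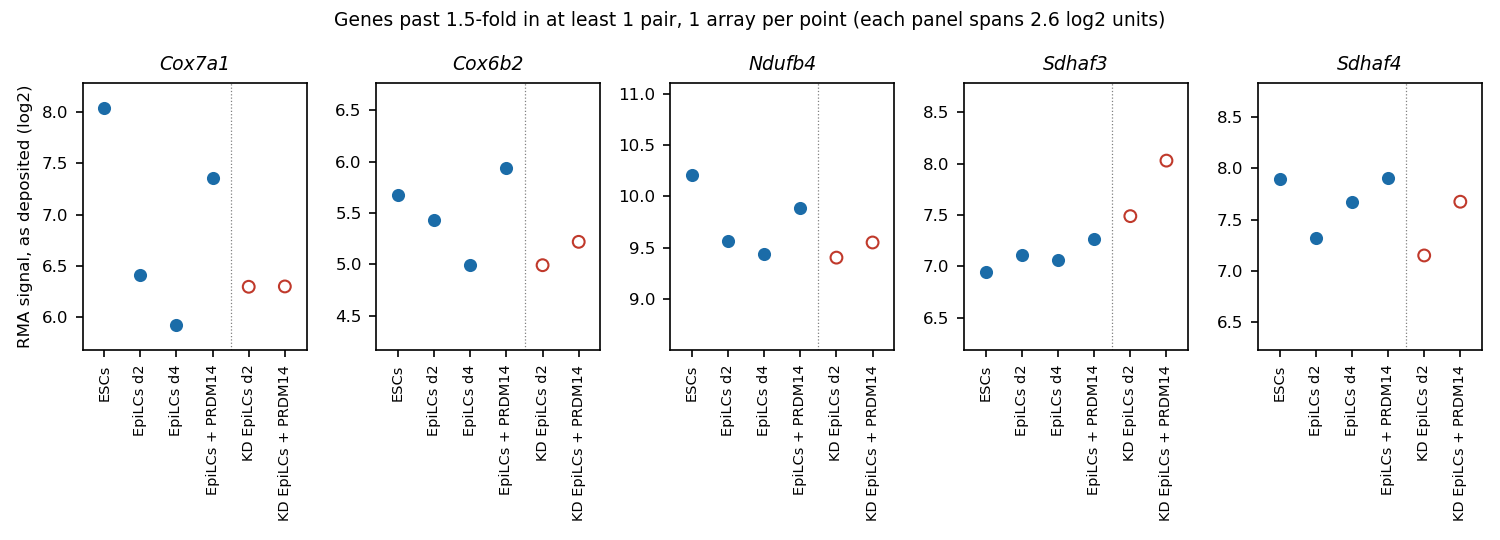
RMA signal as deposited (log2, vertical axis) of the 5 genes past 1.5-fold in at least 1 pair, with 1 point per array; filled points are the 4 arrays without knockdown and open points the 2 KD arrays, whose overall median was lower (5.07 against 5.28). *Cox7a1* is high in ESCs and EpiLCs + PRDM14 and low on both KD arrays, whereas *Sdhaf3* is highest on the KD arrays.

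Complex V, the ATP synthase, had a median range of 0.18 over the 4 arrays without knockdown, the smallest of the 5 complexes. Its largest range, 0.51, was above those of complexes II (0.37), III (0.45) and IV (0.42). Of its 17 subunits, 15 were above EpiLCs (d2) in ESCs with a median of 0.10, and 16 with PRDM14 with a median of 0.11. *Atp5a1* and *Atp5b*, which form the catalytic head, read 11.43, 11.34, 11.28, 11.47, 11.30 and 11.35, and 11.89, 11.67, 11.70, 11.84, 11.51 and 11.62. The 3 genes for the same proton-carrying subunit c differed in pattern: *Atp5g1* read 10.86, 10.53, 10.35, 10.59, 10.45 and 10.53, *Atp5g2* 10.46, 10.42, 10.46, 10.47, 10.29 and 10.40, and *Atp5g3* 12.12, 12.09, 12.15, 12.08, 11.96 and 12.03. *Atp5g1* was thus 0.34 higher in ESCs than in EpiLCs (d2), the most of any complex V gene, against 0.04 for *Atp5g2* and 0.03 for *Atp5g3*. *Atp5e*, a small subunit of the stalk, read 9.55, 9.61, 9.80, 9.96, 9.31 and 9.54, with the largest PRDM14 difference of the complex at 0.35. *Atp5md*, a small membrane subunit, read 9.30, 9.26, 9.38, 9.34, 9.36 and 9.41, and *Atp5pb*, of the peripheral stalk, read 11.04, 10.93, 11.00, 11.00, 10.49 and 10.58.

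**Figure D3:**
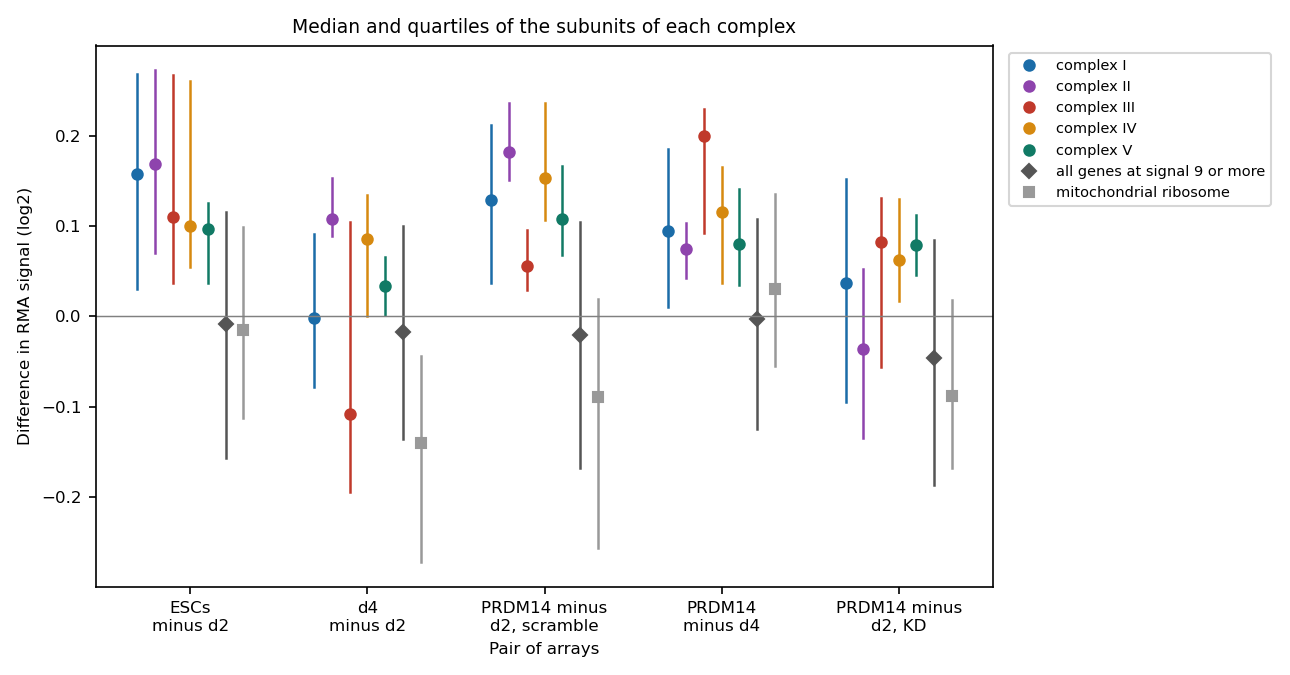
Median (points) and quartiles (lines) of the difference in RMA signal (log2, vertical axis) in 5 pairs of arrays for the subunits of each complex, for all 1498 genes at a mean signal of 9 or more and for the mitochondrial ribosome. The medians of all 5 complexes lie above 0 in ESCs minus EpiLCs (d2) and in both PRDM14 pairs without knockdown, where complex III has 0.06 and 0.20.

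With *Tet1*/*Tet2* knockdown, the PRDM14 difference was in the same direction for most chain genes and no gene passed 1.5-fold. In KD EpiLCs + PRDM14 minus KD EpiLCs (d2) the median was 0.06, 65 of 91 genes were above 0, and 4.64% of all genes passed 1.5-fold. Over all genes the median was -0.01 with 47.1% above 0, and over genes at 9 or more it was -0.05 with 39.5% above 0. By complex the medians were 0.04 for complex I, -0.04 for complex II, 0.08 for complex III, 0.06 for complex IV and 0.08 for complex V. Just inside the limit were *Sdhaf1* at -0.57, *Sdhaf3* at 0.54 and *Sdhaf4* at 0.52.

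Gene by gene, the signed PRDM14 difference was lower in KD than in scramble for 61 of 91 chain genes (67.0%), with a median change of -0.06. The share was 55.1% of genes at 9 or more and 51.4% of all genes. A lower value is not always a smaller difference: *Sdhaf1*, with -0.12 in scramble and -0.57 in KD, is among those counted. *Cox7a1* stood apart, with 0.94 in scramble and 0.00 in KD. Across the 91 genes the 2 differences, which share no array, had a Pearson r of 0.53, and 0.60 without *Cox7a1*, against 0.64 over all genes; the genes are not independent replicates and share their probes between the arrays. *Krt7*, the trophoblast marker, differed by 0.68 with PRDM14 in scramble and by 1.40 in KD.

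**Figure D4:**
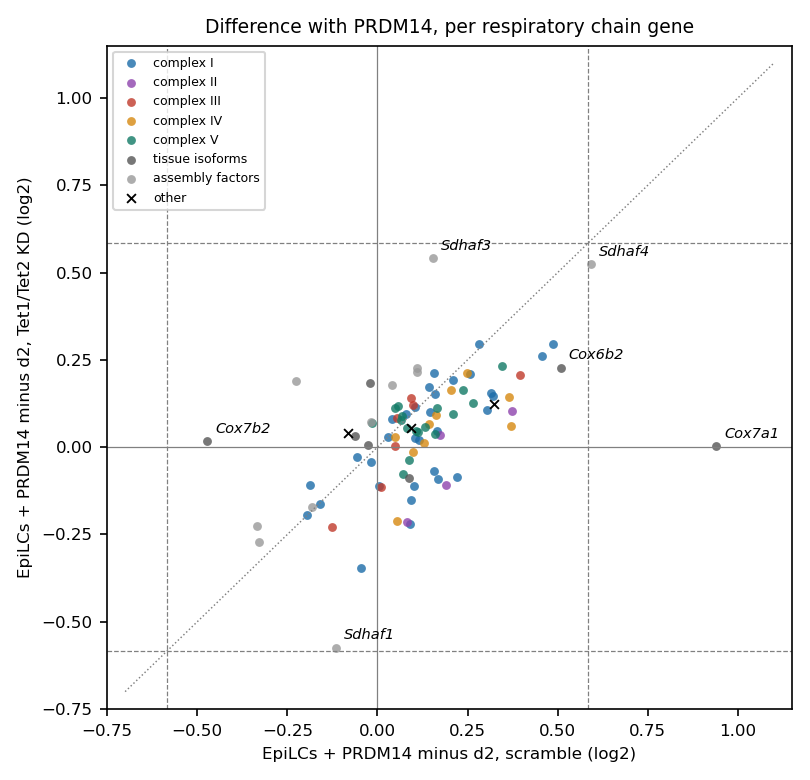
Difference in RMA signal between EpiLCs + PRDM14 and EpiLCs (d2) for each of the 91 genes (log2), with scramble RNA on the horizontal axis and with *Tet1*/*Tet2* KD on the vertical axis; the dotted line marks equal differences and dashed lines 1.5-fold. Most genes lie near the middle, *Cox7a1* lies at 0.94 and 0.00, and *Sdhaf4* is high on both axes (0.59 and 0.52).

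The KD and scramble arrays were also set against each other. At d2, after the shift to a common median, 68 of 91 genes were above 0 with a median of 0.09, where all genes had 0.03. Among genes at 9 or more, 60.7% were above 0, with a median of 0.04. Of the chain genes *Sdhaf3* alone passed 1.5-fold at 0.59, against 5.55% of all genes. The direction of the chain genes' median depended on the scaling: it was -0.13 with 13 genes above 0 on the values as deposited, where all genes had -0.19. After quantile normalization of the 6 arrays it was 0.05. *Sdhaf3* gave 0.38 as deposited and 0.57 after quantile normalization, below the limit in each case. The next largest increases after the shift were those of *Cox8a* (0.32) and *Atp5md* (0.31), and the largest decreases were those of *Ndufa4l2* (-0.35), *Ndufaf4* (-0.33) and *Atp5pb* (-0.23).

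With PRDM14, KD minus scramble gave a median of 0.02 after the shift, 48 of 91 genes above 0, and *Sdhaf3* (0.98, 1.97-fold) and *Cox7a1* (-0.84, 1.79-fold lower) past 1.5-fold, against 6.96% of all genes. As deposited the median was -0.20, as it was for all genes, and after quantile normalization it was -0.02. *Sdhaf1* (-0.56) and *Cox6b2* (-0.51) followed among the decreases, and *Cox7b2* (0.36) and *Ndufaf1* (0.30) among the increases.

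Genes that work beside the chain were described from lists chosen by function. Cytochrome c (*Cycs*) read 10.89, 10.97, 10.99, 11.05, 10.77 and 10.96, cytochrome c1 of complex III (*Cyc1*) 10.83, 10.67, 10.47, 10.57, 10.67 and 10.52, and none of the 3 genes of this list, which also holds the testis form *Cyct*, passed 1.5-fold in a pair. Of 32 assembly factors without the prefixes above, 1 was past 1.5-fold in each of ESCs minus EpiLCs (d2), EpiLCs + PRDM14 minus EpiLCs (d2) and EpiLCs + PRDM14 minus EpiLCs (d4), in each case *Cox18*, which inserts a complex IV subunit into the membrane (0.64, 0.79 and 0.91). Its signals were 8.01, 7.37, 7.25, 8.16, 7.75 and 8.02. The median of this list was 0.03 in ESCs and -0.10 with PRDM14, both against EpiLCs (d2), and *Coa7*, a complex IV factor, was the 1 gene past 1.5-fold in EpiLCs (d4) minus EpiLCs (d2), at -0.68.

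The 12 measured enzymes of the citric acid cycle, complex II aside, had a median of 0.19 in ESCs minus EpiLCs (d2), with 10 above 0, and 0.01 in EpiLCs + PRDM14 minus EpiLCs (d2), with 7 above 0. *Idh2*, the mitochondrial isocitrate dehydrogenase that makes NADPH, read 8.73, 7.71, 7.36, 8.48, 8.33 and 8.55. It was low in scramble EpiLCs and high on the other 4 arrays, with differences of 1.02 in ESCs and 0.76 with PRDM14 from EpiLCs (d2), and 0.83 in KD minus scramble at d2. *Sucla2*, a subunit of succinyl-CoA ligase, differed by 0.69 in ESCs and was the other cycle gene past 1.5-fold.

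Of 9 genes of ATP exchange and uncoupling, only *Slc25a4*, the muscle and heart ADP/ATP carrier, passed 1.5-fold. It read 11.09, 10.92, 11.66, 11.94, 10.94 and 11.69, low in ESCs and both d2 arrays and high in the 3 arrays of replated cells, which differed from their d2 arrays by 0.75 in EpiLCs (d4), 1.03 with PRDM14 and 0.75 with PRDM14 in KD.

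Regulators of mitochondrial biogenesis lay on both sides of 0. The 19 measured regulators had medians of 0.04 in ESCs and -0.06 with PRDM14, both against EpiLCs (d2), and *Gabpb2*, a partner of GABPA, was the 1 gene past 1.5-fold, at -0.60 with PRDM14. *Nrf1* read 7.67, 7.63, 7.51, 7.84, 7.57 and 7.25, *Gabpa* 10.03, 9.72, 9.67, 9.75, 9.58 and 9.57, and *Tfam*, which packs and transcribes mitochondrial DNA, 9.20, 9.35, 9.30, 9.41, 9.05 and 9.07. The 5 genes listed for supercomplexes and for *Ndufa4* and its paralog, 3 of which are among the 91, had none past 1.5-fold.

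The mitochondrial ribosome, which makes the chain subunits encoded in mitochondrial DNA, had medians at or below 0 against EpiLCs (d2). Its 73 measured genes had medians of -0.01 in ESCs minus EpiLCs (d2), -0.14 in EpiLCs (d4) minus EpiLCs (d2) and -0.09 in EpiLCs + PRDM14 minus EpiLCs (d2), with 33, 11 and 21 of 73 above 0. *Mrpl24* (-0.73) and *Mrpl1* (-0.68) were past 1.5-fold in EpiLCs (d4), and *Mrps33* (-0.83) and *Mrpl24* (-0.61) with PRDM14, all against EpiLCs (d2). The difference between this list and the chain genes was not tested.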

How the data were processed

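Total RNA of 6 samples was labelled and hybridised to a 3-prime Affymetrix mouse array. According to the methods, the authors normalized it by RMA in Expression Console (version not given in the sources used here), so the deposited values are log2 signals for 45141 probe sets. RMA draws arrays run together towards 1 distribution, which hides a shift shared by most genes; the KD columns had another median than the other 4. After removal of 104 control probe sets, an older platform annotation gave 1 symbol to 28898 probe sets, several to 551 and none to 15588; the first were used. Of the 91 probe sets used, 9 end in s_at and 6 in x_at, which may bind related transcripts.

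Differences were taken between deposited columns, or between median-shifted columns for KD minus scramble, with Python 3.11.15, numpy 2.4.6 and pandas 2.3.3; scripts were tested on simulated data. With 1 array per condition no test was run, and precision is limited by how few arrays there are. The 1.5-fold limit is that of the methods. Named were genes past it in any of 7 pairs, the 3 largest increases and decreases per pair, core subunits and isoform pairs. Up to 4 genes per list were also named, with more for glycolysis. *Nrf1*, *Gabpa*, *Tfam*, *Cycs*, *Cyc1* and some subunits were named for their role. Members and lists were chosen with earlier results of these data known. Motifs were searched in RefSeq windows matched by gene ID. Alternatives were the probe set rule, the fold limit, the scaling, a filter on dim probe sets and structural subunits alone.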

Additional observations from a re-analysis of the deposited data

How the results depend on the processing

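No paired analysis was possible because each condition had 1 array, and for the same reason no replicate could be left out. Of 98 recomputed counts and medians, 76 stayed within 1.5 times the count or 0.1 of the median, and none of the called genes changed direction. Averaging all probe sets of a gene left 1 gene past the limit in ESCs minus EpiLCs (d2), since *Ndufb4* gave 0.43. Counting each of the 153 probe sets by itself gave 1 in EpiLCs (d4) minus EpiLCs (d2) and 2 in KD minus scramble at d2. The shares over all genes with averaged probe sets and over all single probe sets were not computed, so these counts have no reference. At 2-fold, 1 gene remained in ESCs minus EpiLCs (d2) and 1 in EpiLCs + PRDM14 minus EpiLCs (d4), and 0 in EpiLCs + PRDM14 minus EpiLCs (d2) and in both KD minus scramble pairs; of all genes, 1.90% passed 2-fold in ESCs minus EpiLCs (d2), and 0.714% to 1.53% in the other 6 pairs. At the lower limit of 0.32 (log2) the counts were 13 in ESCs minus EpiLCs (d2) (14.3% of the 91, against 13.0% of all genes) and 8 in EpiLCs (d4) minus EpiLCs (d2) (8.79% against 10.6%). EpiLCs + PRDM14 minus EpiLCs (d2) had 14 with scramble RNA (15.4% against 12.6%) and 4 with KD (4.40% against 13.1%). EpiLCs + PRDM14 minus EpiLCs (d4) had 3 (3.30% against 11.1%). KD minus scramble had 3 at d2 (3.30% against 23.2%) and 5 with PRDM14 (5.49% against 25.5%). With structural subunits alone (77 genes) the counts were 1 in EpiLCs + PRDM14 minus EpiLCs (d2), 0 in KD minus scramble at d2 and 1 with PRDM14. Of all genes, 4.63%, 5.55% and 6.96% passed in these pairs. For KD minus scramble as deposited, 0 chain genes passed at d2 (*Sdhaf3* 0.38) and 4 with PRDM14, with medians of -0.13 and -0.20. Of all 17097 genes, 1468 passed at d2 and 1879 with PRDM14 on the same values. After quantile normalization 0 chain genes passed at d2 (*Sdhaf3* 0.57), where 943 of all genes did. The cause of these changes was not tested beyond the scaling itself. Dim probe sets have little signal over background, and small differences among *Cox6b2*, *Cox7b2* and the like are open to noise that 1 array per condition does not measure.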

Other observations

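Glycolysis genes covered a wider range between arrays than respiratory chain genes, a difference that was not tested. The 20 measured genes had a median range of 0.63 over the 4 arrays without knockdown, against 0.23 for the chain genes. Past 1.5-fold were 7 of them in ESCs minus EpiLCs (d2), where 5.02% of all genes were. Of the 7, 5 were lower in ESCs, *Tpi1* the most at -1.23, and 2 were higher. The list's median in that pair was -0.23, with 5 of 20 genes above 0. In EpiLCs (d4) minus EpiLCs (d2) 3 passed, all higher, against 3.30%. EpiLCs + PRDM14 minus EpiLCs (d2) had 4, with 3 higher and 1 lower, against 4.63% of all genes. EpiLCs + PRDM14 minus EpiLCs (d4) had 5, with 1 higher and 4 lower, against 4.02%. Lactate dehydrogenase *Ldha* read 10.36, 11.21, 11.41, 10.92, 10.48 and 9.49 on the 6 arrays in the order used above, highest in scramble EpiLCs. The glucose transporter *Slc2a1* read 8.91, 9.57, 11.11, 9.89, 9.90 and 10.00 and was highest in EpiLCs (d4). Another glucose transporter, *Slc2a3*, read 11.02, 9.89, 10.99, 11.32, 10.56 and 11.48, lowest on the 2 d2 arrays. *Pfkp*, a phosphofructokinase, read 8.62, 7.13, 7.12, 7.99, 7.82 and 7.67, highest in ESCs. *Pdk1*, the kinase that turns off pyruvate dehydrogenase, read 10.54, 10.82, 10.78, 9.83, 10.59 and 9.62, lowest on the 2 PRDM14 arrays.

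Among 22 genes of mitochondrial protein import, *Timm21*, which links the inner membrane translocase to chain assembly, read 6.78, 8.11, 7.41, 6.82, 7.85 and 6.19. It was high on both d2 arrays and low elsewhere, opposite to most chain subunits, with -1.34 in ESCs, -0.71 in EpiLCs (d4), -1.29 with PRDM14 and -1.66 with PRDM14 in KD, each against the d2 array of its kind. The list's medians were -0.04 in ESCs and -0.10 with PRDM14 against EpiLCs (d2). The 77 genes of the cytosolic ribosome, a list whose prefix also takes the kinase *Rps6ka6*, had a median range of 0.07. Of these genes, 70.1% were above 0 in ESCs minus EpiLCs (d2), against 83.5% of the chain genes. With PRDM14, 77.9% were above EpiLCs (d2) and 80.5% above EpiLCs (d4), against 79.1% of the chain genes in each. The lean above 0 was thus not particular to the chain, though the ribosome medians were smaller, at 0.01, 0.03 and 0.02. *Rpl39l*, a ribosomal protein paralog, was past 1.5-fold with 0.97 in ESCs and -0.76 with PRDM14 against EpiLCs (d2).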
